A study of Mus musculus with 8 samples.

Results

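Glutathione transferases were followed in a mouse model of medulloblastoma, a tumour of the cerebellum that grows from the granule neuron lineage. The 9 genes described are Gsto1, Gstm1, Gstm5, Gstp1, Gsta4, Gstt1, Gstk1, Mgst1 and Mgst3. They were picked by symbol, and all 9 were found among the 20608 symbols of the bulk count table and among the 27998 genes of both single-cell matrices. All samples came from Patched 1 deficient mice, which lack the receptor that restrains Hedgehog signalling. The single-cell data are 1 library of a primary tumour and 1 library of a relapsed tumour taken at 3 weeks. The bulk data are 6 RNA-seq libraries of sorted astrocytes, 3 from stroma A and 3 from stroma B. The study set astrocytes of primary and relapsed tumours side by side, but no label says which of them stroma A or stroma B is. The promoter or cell type behind the Patched 1 deficiency, the age of the mice and the treatment before relapse are not stated in the labels, and no label says whether libraries of a group came from separate animals. One label field of the relapsed single-cell sample calls it primary, whereas its title and source call it relapsed, and the latter were followed. Because these genes were chosen with results of both comparisons known, their values below are a description and no test is read from them.

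Glutathione transferases join the tripeptide glutathione to reactive molecules, which are then exported from the cell. The cytosolic classes are named by Greek letters, a mitochondrial class is called kappa, and the membrane-bound enzymes form a family of their own. Omega enzymes differ from the rest in using a cysteine in the active site and in reducing dehydroascorbate. In the brain, astrocytes are known as the main site of glutathione supply and of the mu class, and the transcription factor Nrf2 raises many of these genes through antioxidant response elements.

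Promoter sequence was looked at because several members are known Nrf2 targets. RefSeq promoters, which run from 250 bases before to 50 bases after the gene start on GRCm38.p6, were matched for 8 of the 9 genes (10 promoters, with Gstm1 and Mgst1 having more than 1). The core of the antioxidant response element, TGACNNNGC on either strand, was found in the promoters of 2 genes, Gstm5 and Mgst1. The same letters were found in 4071 of all 32851 promoters (12.4%). The first 4 letters are shared with the sites of AP-1 and of cyclic AMP response factors. Each core is printed with the 10 bases on either side of it, and capitals mark the core. The stretch of Gstm5 lies at chr3:107895802-107895830 on the plus strand, and its core begins 42 bases before the RefSeq start. The stretch of Mgst1 lies at chr6:138140461-138140489 on the plus strand. Its core, read on the opposite strand, begins 56 bases before the start of that RefSeq promoter. In the GENCODE M21 annotation Mgst1 begins at 138140316, so the core lies inside the gene there. The other RefSeq promoter of Mgst1 held 0 matches.
Gstm5: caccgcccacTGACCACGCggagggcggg
Mgst1: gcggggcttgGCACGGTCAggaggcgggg

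The 247 bases before the GENCODE M21 start of Gsto1, the gene with the widest difference between groups, are shown for reference (chr19:47854723-47854969, plus strand). They hold no match to the core, and all letters are therefore in lower case.
Gsto1: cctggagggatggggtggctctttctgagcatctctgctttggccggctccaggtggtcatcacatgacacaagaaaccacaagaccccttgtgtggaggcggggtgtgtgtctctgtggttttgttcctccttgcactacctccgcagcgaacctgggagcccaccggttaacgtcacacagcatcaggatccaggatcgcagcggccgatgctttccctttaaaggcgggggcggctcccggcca

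The bulk libraries held 6718165 to 11798735 reads. Bulk levels are reads scaled by library size and TMM factors to counts per 1000000 (CPM), and those of the 9 genes ran from 0.355 to 158. All 15 astrocyte markers were detected in both stroma groups. So were all 11 oligodendrocyte precursor markers, with summed levels of 14369 to 24339 CPM (stroma A) and 3514 to 15982 CPM (stroma B). The astrocyte sums were 3494 to 8882 CPM and 6177 to 15371 CPM in the same order. All 17 microglia and macrophage markers were also detected, with sums between 40.7 and 3614 CPM among stroma A libraries and between 58.8 and 180 CPM among those of stroma B. None of these lists had a marker at 0 in all libraries of a group. In single libraries, Trem2 and Pf4 were at 0 in stroma A replicate 1 and Tmem119 in stroma B replicate 3. For 6 of the 18 marker lists the summed levels of the groups did not overlap. Higher in stroma A were oligodendrocyte markers (1410 to 2525 against 196 to 709 CPM), pericyte markers (1313 to 2593 against 225 to 1114 CPM), fibroblast markers (4426 to 7628 against 888 to 3712 CPM) and unipolar brush cell markers (22.2 to 33.1 against 10.8 to 14.9 CPM). In stroma A replicate 1, Pdgfra gave 7606 of the 7628 CPM of fibroblast markers, and Cspg4 gave 2301 of the 2312 CPM of pericyte markers. In stroma B replicate 2 the parts were smaller (485 of 1462 and 283 of 569 CPM). Both genes are also oligodendrocyte precursor markers, so these sums do not set fibroblasts or pericytes apart from such precursors. Higher in stroma B were cycling markers (4167 to 4633 against 1426 to 1556 CPM) and granule precursor and tumour markers (2125 to 4799 against 1388 to 2085 CPM). The part of these cell types in the bulk values was not tested, and in bulk samples fewer cells of a type and less RNA per cell cannot be told apart.

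Gsto1, the omega class enzyme, was high in stroma A and near the floor in stroma B. It stood at 10.4, 13.1 and 9.44 CPM in stroma A replicates 1 to 3 and at 0.776, 0.355 and 0.461 CPM in stroma B replicates 1 to 3, from 91, 95 and 84 reads against 7, 4 and 5. The groups did not overlap, and the stroma B values rest on single-digit read counts. The fitted log2 fold change of stroma B against stroma A was -4.35 (SE 0.53), with an adjusted p of 0.0383 in edgeR's quasi-likelihood test. Across all genes 94 of 14176 passed that threshold (0.663%), 39 of them lower in stroma B (0.275%) and 55 higher (0.388%). Of the 9 genes 1 passed, Gsto1, and this was known when the genes were chosen. Leaving out any library except stroma B replicate 3 raised its adjusted p to between 0.0613 and 0.23, while its log2 fold change stayed between -4.68 and -4.12. Without stroma B replicate 3 the adjusted p was 0.0158, and 1342 genes passed in all.

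Gstm1 and Gstm5 belong to the mu class. Gstm1, which conjugates a wide range of electrophiles, stood at 11.2, 8.95 and 21.5 CPM in stroma A and at 71.2, 158 and 26.6 CPM in stroma B. Every stroma B library was above every stroma A library, although stroma B replicate 3 was close to stroma A replicate 3. The log2 fold change was 2.62 (SE 0.67), with an adjusted p of 0.112 in edgeR, 0.000799 in DESeq2 and 0.0156 in edgeR without stroma B replicate 3. In DESeq2 1728 of the 16468 genes with an adjusted p passed (10.5%), among them 3 of the 9 genes, Gsto1, Gstm1 and Mgst1. Gstm5, known from brain and testis, stood at 90.7, 85.6 and 52.5 CPM in stroma A and at 106, 68.2 and 56.8 CPM in stroma B. The groups overlapped and the log2 fold change was 0.01 (SE 0.31, adjusted p = 0.986 in edgeR). The astrocyte marker sum was highest in stroma B replicate 2 (15371 CPM), the library with the highest Gstm1, and its part in that value was not tested.

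Mgst1 and Mgst3 are the membrane-bound enzymes. Mgst1, which sits in the endoplasmic reticulum and outer mitochondrial membrane, stood at 4.56, 1.79 and 6.96 CPM in stroma A and at 29.4, 41.8 and 3.78 CPM in stroma B. Stroma B replicates 1 and 2 were high and replicate 3 fell among the stroma A values, so the groups overlapped. Its log2 fold change was 2.48 (SE 0.87), with an adjusted p of 0.173 in edgeR, 0.0221 in DESeq2 and 0.0218 in edgeR without stroma B replicate 3. Mgst3, a glutathione peroxidase and transferase of the same family, stood at 10.6, 10.2 and 7.3 CPM in stroma A and at 5.88, 5.23 and 2.67 CPM in stroma B. All stroma A libraries were above all stroma B libraries, with a log2 fold change of -1.03 (SE 0.45, adjusted p = 0.241 in edgeR). For both genes stroma B replicate 3 was the lowest library of its group.

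Gstk1, the mitochondrial and peroxisomal kappa enzyme, stood at 12.8, 7.43 and 12.7 CPM in stroma A and at 3.99, 3.28 and 0.369 CPM in stroma B. The groups did not overlap, and stroma B replicate 3 held 4 reads. The log2 fold change was -2.11 (SE 0.79). Gstp1, the pi class enzyme often raised in tumours, stood at 17.6, 13.2 and 14.6 CPM in stroma A and within a narrow range of 8.76 to 9.04 CPM in stroma B. These groups did not overlap either, with a log2 fold change of -0.76 (SE 0.29). Gstp1 reads are uncertain, since 62.3% of the 50-base stretches of its transcript also occur in other genes, led by Gstp2. The authors' FPKM table, made separately, lists Gstp2 at 4.39 to 7.95 where the count table gives it 0 to 4 reads, and in FPKM the Gstp1 groups overlapped, at 10.2 to 17.0 in stroma A and 9.95 to 14.8 in stroma B. For Gstm1 the shared part was 23.1%, and for the other 7 genes no such stretch was shared.

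Gsta4, the alpha class enzyme that clears the lipid peroxidation product hydroxynonenal, and Gstt1, the theta class enzyme acting on small halogenated compounds, showed no separation. Gsta4 stood at 31.0, 10.9 and 17.9 CPM in stroma A and at 10.3, 26.6 and 10.6 CPM in stroma B. Gstt1 stood at 11.7, 9.36 and 6.85 CPM in stroma A and at 10.6, 11.2 and 4.70 CPM in stroma B. In both genes the groups overlapped, with log2 fold changes of -0.33 (SE 0.53) and -0.08 (SE 0.45).

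**Figure D1:**
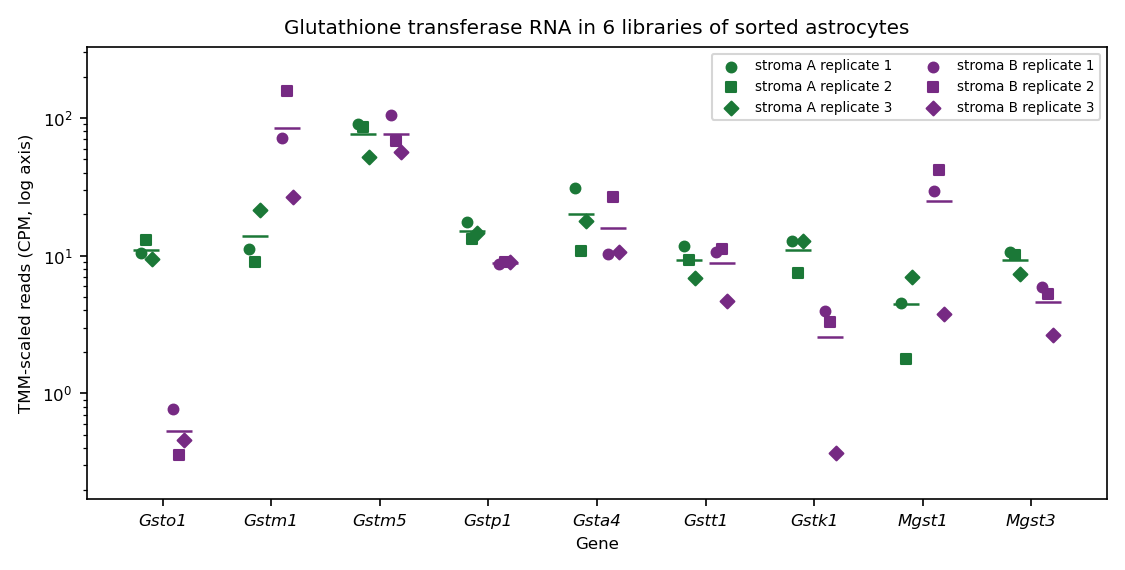
TMM-scaled read counts (CPM, log axis) of the 9 glutathione transferases in each of the 6 astrocyte libraries, with the mean of each group as a short line. Gsto1 lies between 9.44 and 13.1 CPM in stroma A and between 0.355 and 0.776 CPM in stroma B, and Gstk1 is lowest in stroma B replicate 3, at 0.369 CPM.

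Across the 9 genes, the stroma libraries did not overlap for 5 (Gstm1 higher in stroma B, and Gsto1, Gstp1, Gstk1 and Mgst3 lower), where 27.2% of all genes tested did not overlap. The median log2 fold change of the 9 was -0.33 and that of all genes tested was -0.03. Per length, on the authors' FPKM scale, Gstm5 had the highest mean over the 6 libraries (34.9), followed by Gstm1 (14.3), Gstp1 (12.8), Gsta4 (8.22), Mgst1 (7.21), Mgst3 (3.98), Gstt1 (3.46), Gstk1 (2.51) and Gsto1 (1.74). The libraries of each pair of neighbours in that order overlapped. Within stroma A, Gstm5 (32.3 ± 12.4 FPKM, SD, n = 3) stood apart from Gstm1 (2.98 ± 1.33), whereas within stroma B the same genes (37.5 ± 9.46 and 25.7 ± 21.1) overlapped. Gsto1 was listed at an FPKM of 0 in stroma B replicate 3, where the count table gives it 5 reads.

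Other genes of glutathione chemistry did not pass the same threshold in edgeR. None of the 13 tested among 25 other glutathione transferases and relatives passed (3 at an unadjusted p under 0.05). The same was true of 24 genes of glutathione synthesis and turnover (2), of 21 genes of the peroxidase, peroxiredoxin and thioredoxin system (3) and of 28 Nrf2 pathway genes (2). Over all genes tested, 3095 of 14176 had an unadjusted p under 0.05 (21.8%). Their median log2 fold changes were 0.10, -0.03, 0.14 and -0.13. The largest values among the transferases belonged to Gsto2, the second omega enzyme (-4.01, SE 1.36, adjusted p = 0.162), to Ltc4s, the leukotriene C4 synthase (-3.29, SE 0.82), and to Hpgds, the haematopoietic prostaglandin D synthase (-1.90, SE 1.38). In the turnover list they were the ectopeptidase Anpep (-3.21) and the gamma-glutamyl transferases Ggt1 (-2.26) and Ggt5 (-2.16). In the peroxidase list they were Gpx8 (1.60), Txn1 (0.68) and Prdx5 (-0.65), and among Nrf2 pathway genes Osgin1 (-2.15), the epoxide hydrolase Ephx1 (1.78) and the quinone reductase Nqo1 (1.14). In DESeq2 Gsto2, Ltc4s and Alox5ap passed of 17 other transferases and relatives, Dpep2 and Anpep of 26 turnover genes, none of 21 peroxidase genes, and Osgin1 and Ephx1 of 28 Nrf2 pathway genes, where 10.5% of all genes passed. Ephx1 was higher in stroma B and the other 6 were lower.

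Gsto1 lies at chr19:47854970-47864790 on the plus strand (mm10, GENCODE M21), inside the span of Cfap43, which is read from the opposite strand. No source states how strand was handled in the bulk counts, so reads of the pair cannot be told apart there. The neighbour 0.744 kb away, Gsto2, held 12, 15 and 34 reads in the stroma A libraries, against 4, 0 and 0 reads in those of stroma B. Other protein-coding genes tested within 300 kb had log2 fold changes between -0.85 (Col17a1) and 0.24 (Sfr1). Cfap43 and Cfap58 are not listed under these symbols in the bulk count table, so no bulk value is given for them. Gstm5 overlaps an antisense gene, 4933431E20Rik, with the same limit on strand.

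The genes whose log2 CPM followed Gsto1 most closely over the 6 libraries were 2610305D13Rik (Pearson r = 0.999), Cntn6 (0.995), Cdc42ep5 (0.995), Nrg1 (0.992) and Ankrd39 (0.991), among 14176 genes. Cntn6, a neural adhesion molecule, stood at 34.4 to 42.1 CPM in stroma A and at 1.33 to 2.88 CPM in stroma B. Nrg1, the growth factor neuregulin, stood at 17.8 to 19.8 CPM and at 4.26 to 4.98 CPM. With 6 libraries in 2 groups, such values mostly rank the separation of the groups.

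In the single-cell data, 8548 cells of the primary and 7369 of the relapsed library were kept, with medians of 5291.5 and 6998 unique molecular identifiers (UMIs) per kept cell. The libraries shared 93 barcode sequences. Levels are UMIs per 1000000 of a cell type (CPM), with exact Poisson intervals of 95% that cover counting error only, and with 1 library a group no test was made. Granule lineage cells, called from granule precursor and neuron markers such as Atoh1 and Zic1, made up 7382 primary and 6919 relapsed cells. Their clusters were nearly all of 1 library each, so state of the lineage and library cannot be told apart. Other types were small, with 57 and 64 astrocyte-like, 175 and 34 oligodendrocyte precursor-like, 215 and 31 microglia and macrophage-like, 21 and 13 endothelial-like, 3 and 13 pericyte-like and 6 and 22 fibroblast-like cells. The relapsed library also held 122 pituitary hormone cell-like cells, and 689 and 151 cells stayed unnamed. No authors' cell annotation was used here, so the names rest on marker lists and may differ from the study's.

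Gsto1 RNA was present in granule lineage cells of the primary tumour and almost absent from those of the relapsed tumour, while microglia carried similar amounts in both. The granule lineage held 882 UMIs in the primary library (19.3 CPM, interval 18.0 to 20.6) and 26 in the relapsed library (0.463 CPM, interval 0.302 to 0.678). The relapsed to primary ratio was 0.0240 (interval 0.0156 to 0.0354), a 41.7-fold lower level. Of 12679 genes with at least 50 UMIs in this lineage, 34 including Gsto1 had a ratio as low or lower. A UMI of Gsto1 was seen in 10.5% of primary and 0.376% of relapsed granule lineage cells, or in 2.36% and 0.0867% after each cell was thinned to 1500 UMIs.

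In microglia and macrophage-like cells Gsto1 stood at 149 CPM in the primary library (259 UMIs) and at 136 CPM in the relapsed library (50 UMIs), a ratio of 0.914 (interval 0.661 to 1.24). A UMI was seen in 54.9% and 58.1% of these cells, at median depths of 6056 and 11083 UMIs. Free RNA can carry UMIs from one cell type into droplets of another. In the primary library the granule lineage level of Gsto1 was 12.97% of the microglial level, where 16 microglial markers with at least 50 UMIs in microglia stood at 0.0605% to 0.440%. In the relapsed library it was 0.341%, inside the range of 0.00458% to 0.474% for 16 such markers. The microglial markers in the granule lineage were themselves lower in the relapsed library, as for C1qa (10.9 against 0.730 CPM) and Csf1r (0.941 against 0.125 CPM).

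Other cell types held few Gsto1 UMIs. Astrocyte-like cells had 3 UMIs in the primary library (10.1 CPM) and 0 in the relapsed library, where the level of 3 UMIs would be 2.76 CPM. Oligodendrocyte precursor-like cells had 15 UMIs (24.6 CPM) and 0, where 3 UMIs would be 6.95 CPM. The upper bounds of the relapsed to primary ratio were 0.659 and 0.393, and the primary levels were near that of the granule lineage of the same library. Relapsed precursor-like cells formed a cluster of their own, led by Pou3f1, apart from the primary ones. Unnamed cells, mostly of few detected genes, held 50 UMIs (19.2 CPM) and 0. Endothelial-like cells gave 22.6 and 29.9 CPM from 3 and 7 UMIs. The 22 relapsed fibroblast-like cells reached 138 CPM from 64 UMIs, a level like that of microglia, with 13 of the 22 cells showing a UMI. The depth of the small types differed between libraries, with astrocyte-like medians of 4608 and 16390 UMIs and precursor-like medians of 3375 and 12840.

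**Figure D2:**
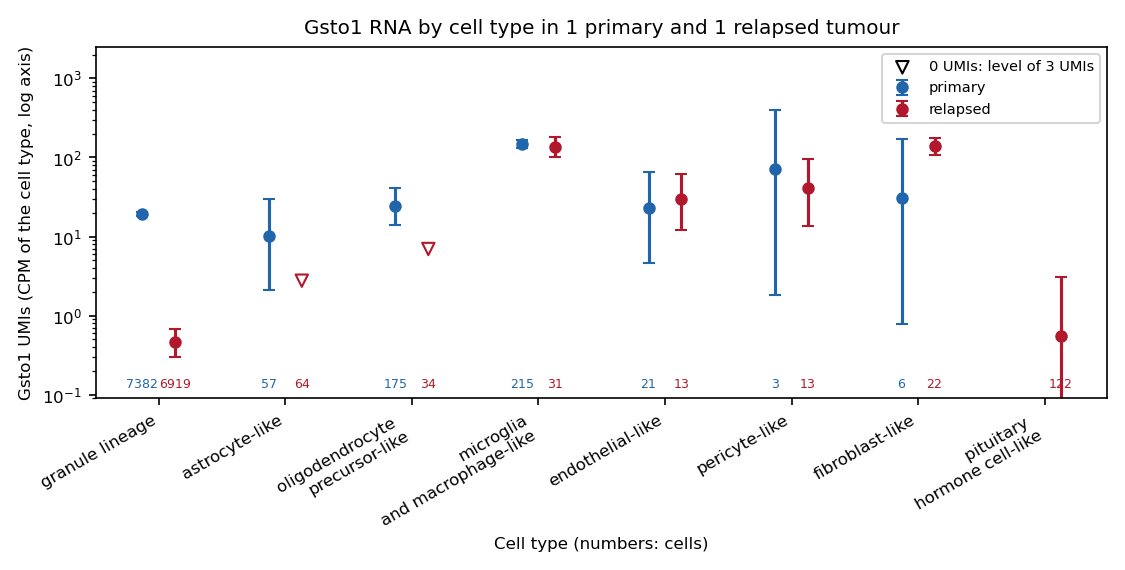
Gsto1 UMIs per 1000000 (log axis) in each cell type of the primary and the relapsed tumour, with exact Poisson intervals and the number of cells under each point. Open triangles mark types with 0 UMIs at the level 3 UMIs would give. The granule lineage is at 19.3 CPM in the primary and 0.463 CPM in the relapsed tumour, while microglia and macrophage-like cells are at 149 and 136 CPM.

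By cell state, the 744 primary UMIs of granule lineage cells outside the cycling and differentiating clusters gave 22.2 CPM, against 0.736 CPM in the relapsed library (25 UMIs). Cycling cells stood at 11.6 and 0.0617 CPM (96 UMIs and 1 UMI). Differentiating cells stood at 10.6 CPM (42 UMIs) and at 0 UMIs. The relapsed library was low in all 3 states. Over the clusters, Gsto1 ranged from 10.6 to 26.9 CPM in the 7 clusters made of primary cells and from 0 to 0.859 CPM in the 6 made of relapsed cells, with no overlap. Clusters of the same library are not replicates, and the share of all genes whose clusters separate in this way was not counted.

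Gstk1 followed the same direction in the granule lineage at a much lower level. It stood at 1.55 CPM (71 UMIs) in the primary and at 0.338 CPM (19 UMIs) in the relapsed library, a ratio of 0.218 (interval 0.124 to 0.366). In clusters it ranged from 0.760 to 2.20 CPM among primary and from 0 to 0.560 CPM among relapsed clusters. These ranges do not overlap, but the nearest values rest on 2 primary and 3 relapsed UMIs, too few to separate them. Its highest level among types of at least 50 cells was in primary precursor-like cells, at 14.8 CPM from 9 UMIs (interval 6.76 to 28.0). That interval overlapped the one of relapsed pituitary hormone cell-like cells, at 13.7 CPM from 25 UMIs (8.89 to 20.3). Among smaller types Gstk1 stood higher in the 13 relapsed pericyte-like cells, at 74.2 CPM from 9 UMIs (interval 33.9 to 141). Gsto1 and Gstk1 were the 2 of 9 members at least 2-fold lower in the relapsed granule lineage, where 8.12% of all genes were. None of the 9 was at least 2-fold higher, where 5.95% of all genes were. In either direction the share of all genes was 14.1%.

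Mgst3 differed with the state of the granule lineage. In the primary library it stood at 138 CPM in differentiating cells, 29.2 in cycling cells and 51.6 in the rest of the granule lineage. In the relapsed library the same states stood at 80.2, 22.8 and 26.3 CPM. Within the granule lineage, both libraries thus had their highest Mgst3 in differentiating cells. Each state was lower in the relapsed library, with a lineage ratio of 0.564 (interval 0.530 to 0.600). Mgst1 showed the opposite order. It was lowest in differentiating cells, at 4.79 and 3.84 CPM, and stood at 25.7 and 32.3 CPM in cycling cells.

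Gstp1 was higher in the relapsed granule lineage, at 27.0 against 17.4 CPM, a ratio of 1.55 (interval 1.43 to 1.70). Its clusters ranged from 10.9 to 21.3 CPM among primary and from 20.2 to 34.0 among relapsed clusters, so that they overlapped slightly. Gstp2, its near copy, was also higher, at 0.819 against 0.131 CPM, from 46 and 6 UMIs. Mgst1 in the lineage stood at 27.5 against 20.6 CPM, a ratio of 1.33 (interval 1.23 to 1.45). Gstm5 was the most abundant of the 9 in UMIs there and differed least, at 264 against 287 CPM, a ratio of 0.921 (interval 0.900 to 0.943). Gstm1 stood at 46.7 against 42.1 CPM and Gstt1 at 10.9 against 12.6 CPM.

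**Figure D3:**
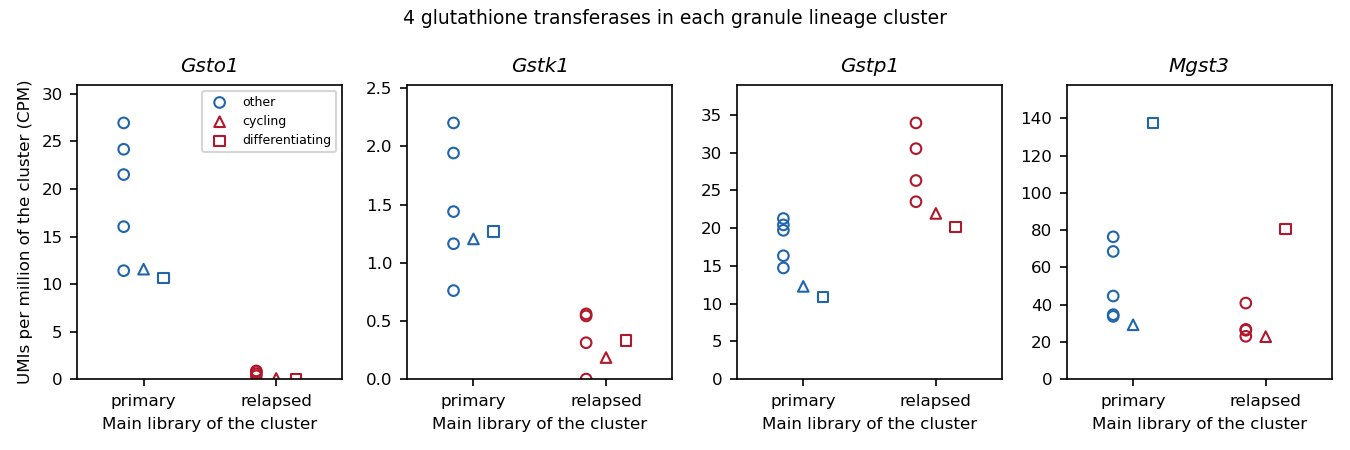
UMIs per 1000000 of Gsto1, Gstk1, Gstp1 and Mgst3 in each of the 13 granule lineage clusters, placed by the library that supplied nearly all cells of the cluster, with symbols for cell state. Primary and relapsed clusters do not overlap for Gsto1 or Gstk1, although the nearest Gstk1 clusters hold only 2 and 3 UMIs. Mgst3 is highest in the differentiating cluster of each library.

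Among types of at least 50 cells, astrocyte-like cells had the highest level of 6 of the 9 genes, Gstm1, Gstm5, Gstp1, Gsta4 and Mgst1 in the relapsed library and Gstt1 in the primary library. How many of all genes have their highest level in astrocyte-like cells was not counted, so these 6 are a description only. For Gstm5 the interval of its highest level (331 CPM, 298 to 367) overlapped that of primary granule lineage cells outside the cycling and differentiating clusters (314 CPM, 308 to 320). For Gstp1 (42.3 CPM from 46 UMIs, 31.0 to 56.5) it overlapped that of the corresponding relapsed granule lineage cells (30.6 CPM, 28.7 to 32.5). It also overlapped that of pituitary hormone cell-like cells (36.8 CPM, 28.5 to 46.8). Gstm1 reached 717 CPM (interval 624 to 820) in primary and 1115 CPM (1053 to 1180) in relapsed astrocyte-like cells, against 42.1 and 46.7 CPM in the granule lineage. Without the condition on leading genes for naming clusters, which was set after the data were seen, these astrocyte-like levels were 449.8 and 1011 CPM. Mgst1 stood at 301 and 409 CPM in astrocyte-like cells, or at 192 and 373 CPM without that condition, and Gstt1 at 91.3 and 70.9 CPM. These astrocyte-like levels were above those of the granule lineage in both libraries for each of the 3 genes. Gsta4 stood at 37.2 CPM (11 UMIs) and 98.5 CPM (107 UMIs), against 3.43 and 2.48 CPM in the granule lineage. Gstm5 differed little between astrocyte-like cells, at 254 and 331 CPM, and the granule lineage, at 287 and 264 CPM. It was lower in microglia and macrophage-like cells, at 111 and 97.9 CPM.

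Between the libraries, the astrocyte-like ratios of relapsed to primary were 1.56 for Gstm1 (interval 1.34 to 1.81), 1.36 for Mgst1 (1.08 to 1.73), 1.31 for Gstm5 (1.02 to 1.70) and 2.65 for Gsta4 (1.42 to 5.46). Gstt1 had a ratio of 0.776 (0.495 to 1.25), whose interval includes 1. Of these 5 genes with at least 50 UMIs, 1 was at least 2-fold higher, where 8.01% of all genes were, and none was at least 2-fold lower, where 7.12% were (15.1% in either direction). Gstp1 went from 3 to 46 UMIs, or 10.1 to 42.3 CPM. The astrocyte-like cells of the libraries sat in different clusters, with most primary cells in 2 clusters led by Cxcl1 and Wif1 and most relapsed cells in a cluster led by the metallothioneins Mt2 and Mt1. Of 14 astrocyte markers with at least 50 UMIs, 5 were at least 2-fold higher in relapsed astrocyte-like cells, such as Fabp7 (12223 against 5234 CPM) and Apoe (11000 against 5075 CPM), and 1 was at least 2-fold lower, Gja1 (76.4 against 196 CPM). The 15 markers summed to 33991 against 20692 CPM. The part of these differences in the ratios was not tested.

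In microglia and macrophage-like cells Mgst1 stood at 135 CPM in the primary library (235 UMIs) and at 410 CPM in the relapsed library (151 UMIs). The ratio was 3.04 (interval 2.46 to 3.75), and 4.12% of all genes were at least 2-fold higher in these cells, 11.9% at least 2-fold lower and 16.0% either way. This microglial level equalled that of relapsed astrocyte-like cells (409 CPM). It was the only member past 2-fold among the 5 with at least 50 UMIs there, the others being Gsto1, Gstm1, Gstm5 and Mgst3. The 17 microglia and macrophage markers summed to 46949 CPM in the relapsed and 47776 CPM in the primary cells. Of them 2 were at least 2-fold lower in the relapsed cells, Ctss (1199 against 2570 CPM) and Tmem119 (51.7 against 126 CPM, from 19 relapsed UMIs), and 2 were at least 2-fold higher, Mrc1 (389 against 36.2 CPM) and Pf4 (136 against 28.1 CPM). Cx3cr1 stood at 1093 against 699 CPM and Csf1r at 650 against 546 CPM. Their part in the Mgst1 value was not tested.

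Fibroblast-like cells of the relapsed library carried the highest Gsta4 of any type, at 335 CPM from 155 UMIs in 22 cells, along with 244 CPM of Mgst1, 238 of Gstm1 and 106 of Gstp1. The 6 primary fibroblast-like cells are too few to set beside them. In precursor-like cells Gstm5 alone reached 50 UMIs, at 179 CPM in the primary and 250 CPM in the relapsed library, short of the 2-fold difference that 26.8% of all genes showed there (14.9% lower, 11.9% higher). Among types of at least 50 cells, 8 of the 9 genes had their highest level outside the granule lineage. The exception was Mgst3. The share of all genes with their highest level outside the granule lineage was not counted. In smaller types Mgst3 reached 198 CPM in the 13 relapsed pericyte-like cells (24 UMIs, interval 127 to 295). Endothelial-like cells had it at 113 CPM in the primary and 111 CPM in the relapsed library (15 and 26 UMIs). For Gstm5 and Gstp1 the counting intervals inside and outside the granule lineage overlapped.

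**Figure D4:**
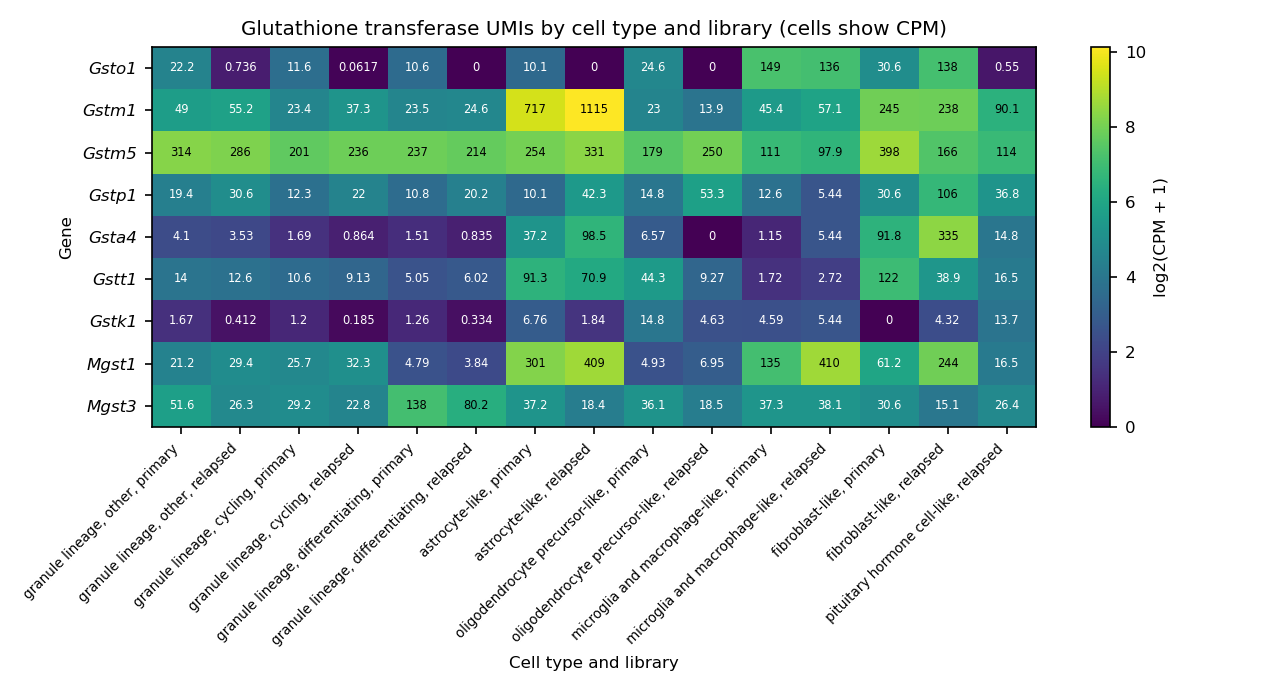
UMIs per 1000000 of the 9 glutathione transferases by cell type and library, printed in each cell and coloured on a log2(CPM + 1) scale. Endothelial-like, pericyte-like and unnamed cells are not drawn. Among the types drawn, Gstm1 is highest in astrocyte-like cells and Mgst1 in relapsed astrocyte-like and microglia and macrophage-like cells. Gsto1 is highest in microglia and macrophage-like and relapsed fibroblast-like cells, and Mgst3 in differentiating granule lineage cells.

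Over the 17 cell type and library units with at least 10 cells, the genes whose log2(CPM + 10) followed Gsto1 most closely were Blvrb (Pearson r = 0.893), Tgfbr1 (0.891), Tmem14c (0.880), Cmtm7 (0.865) and Arhgdib (0.861). Blvrb is a biliverdin and flavin reductase and Tgfbr1 a receptor for transforming growth factor beta. For Gstm1 they were Clec3b (0.917), Slc4a4 (0.913), Itih3 (0.908), Pdpn (0.903) and Lrig1 (0.889), of which Slc4a4, a bicarbonate transporter, is an astrocyte marker. These units share 2 libraries and differ in depth, so the values are a description.

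Other genes of glutathione chemistry in the granule lineage were counted in the same lists, where 14.1% of all genes were at least 2-fold apart (8.12% lower and 5.95% higher in the relapsed library). Of 9 other transferases and relatives 1 was higher, of 19 synthesis and turnover genes 2 were lower and 1 higher, of 20 peroxidase genes 1 was higher, and of 25 Nrf2 pathway genes 2 were lower and 1 higher. Among those with at least 50 UMIs, Chac1, which breaks down glutathione (0.392 against 2.87 CPM), and the glyoxalase Glo1 (72.2 against 154 CPM) were lower in the relapsed library. The glutaredoxin Glrx (76.8 against 27.5 CPM) and the thioredoxin reductase Txnrd3 (7.80 against 2.60 CPM) were higher. In the Nrf2 pathway list Nqo1 and Hmox1, the haem oxygenase, were lower and Ephx1 was higher, with a median log2 ratio of 0.06 against -0.10 for all genes. In astrocyte-like cells, 5 of 16 Nrf2 pathway genes were at least 2-fold higher in the relapsed library, where 8.01% of all genes were. These were Hmox1 (159 against 13.5 CPM), the malic enzyme Me1 (259 against 40.6 CPM), Pgd, Cbr3 and Ephx1, with a list median of 0.64 against -0.04 for all genes. Glutathione reductase, Gsr, which returns oxidised glutathione to its reduced form, belongs to the synthesis and turnover list. It stood at 286 against 64.2 CPM in astrocyte-like cells. Of 11 genes of that list there, 1 was at least 2-fold higher and 0 were lower. Of 17 peroxidase genes 1 was higher and 1 lower, and of 3 other transferases and relatives 0 were either. Over all genes 8.01% were higher and 7.12% lower. These lists were read in 1 library of each kind, so the values describe the libraries.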

How the data were processed

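Per the labels, bulk RNA-seq covered 6 libraries of sorted astrocytes, and single-cell RNA-seq on a Chromium Controller covered 2 tumours. The bulk read counts and FPKM values are the authors' own, deposited per gene symbol, and the single-cell files hold deposited UMI counts. Cell Ranger, STAR, Seurat and mm10 appear in the submitters' processing notes without roles. How the bulk reads were counted, on which annotation and with which strand setting, is stated in no label or header. The bulk columns of stroma A replicate 2 add a suffix to its title, so their match to that sample is assumed.

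The 9 genes, the other lists and the markers were chosen with earlier results of these data known. All 9 genes are named. Of each other list, genes past the threshold or otherwise the 3 largest fold changes are named, and the 5 genes closest to Gsto1 (and to Gstm1 in single cells) by Pearson r. Further list members named in the single-cell text and the microglial and astrocyte markers there were chosen after their values were seen.

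Of 20608 symbols, 639 were 0 in all libraries and 14176 passed filterByExpr. They were scaled by TMM and tested by quasi-likelihood in edgeR 4.0.16 under R 4.3.3, with Benjamini-Hochberg adjustment over all genes tested at 0.05. P-values measure the spread between these libraries, which may be technical. The fit was tested on simulated data. DESeq2 1.42.0, RLE factors, no filter and left-out libraries were alternatives.

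Cells with at least 500 genes and at most 10% mitochondrial UMIs passed. Scrublet (scanpy 1.11.5) marked 0 doublets at its automatic threshold in both libraries, so the 6% with the highest scores were removed (546 and 470). Clusters were made with Leiden at resolution 1 on 1983 variable genes, leaving out all genes of the lists, and gave 21 clusters. Clusters were named where at least 3 markers were raised at least 4-fold, and called granule lineage where no other type reached this and at least 3 granule markers were present at 20 CPM or more in 20% of cells or more. A further condition, that the 10 leading genes do not hold more markers of another type, was set after seeing the data. Ratios carry exact conditional binomial intervals of 95%. Promoters came from the RefSeq table for GRCm38.p6 and coordinates from GENCODE M21.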

Additional observations from a re-analysis of the deposited data

Results flagged for a closer look

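For 3 genes the relapsed to primary ratio had a counting interval above 1 in one cell type and below 1 in another, among types with at least 10 cells in each library. The difference between the types was not tested, since each library is 1 sample. Gstm1 had ratios of 1.56 in astrocyte-like cells, 1.11 in the granule lineage and 0.208 in endothelial-like cells, the last from 19 and 7 UMIs in 21 and 13 cells. Gstm5 had ratios of 1.31 in astrocyte-like and 1.40 in oligodendrocyte precursor-like cells and of 0.921 in the granule lineage. Gsta4 had a ratio of 2.65 in astrocyte-like cells, of 0.721 in the granule lineage (interval 0.570 to 0.912) and of 0 in endothelial-like cells, where 16 primary UMIs stood against 0 relapsed UMIs (upper bound of the ratio 0.147).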

How the results depend on the processing

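The count of genes past the threshold between the stroma groups depended on the processing. Against 94 in edgeR with TMM, DESeq2 gave 1728 and edgeR without the count filter 227, while RLE factors gave 91. Leaving out 1 library gave 0 to 1342 genes, the latter without stroma B replicate 3. Leaving out any other library gave 0, with 2067 to 3781 genes at an unadjusted p under 0.05. Leaving out both libraries of number 5 (stroma A replicate 3 and stroma B replicate 1) gave 0, with 1563 at an unadjusted p under 0.05. No paired analysis was possible because the groups share only 1 number in their titles. DESeq2 moved the median log2 fold change of all genes to -0.26, and 6 of the 9 transferases were fitted lower in stroma B there, as in the main setting. Gsto1, Gstp1, Gstk1 and Mgst3 were fitted lower and Gstm1 and Mgst1 higher in all 10 alternatives. Gsto1 had adjusted p-values of 1.03e-09 (DESeq2) to 0.239 (without number 5) over these. The 3 genes near 0 changed sign in some. Gstt1 was at 0.017 without the filter, and ranged from -0.28 to 0.25 with 1 library left out. Gsta4 ranged from -0.92 to 0.21 and Gstm5 from -0.26 to 0.23 with 1 library left out, and Gstm5 was at -0.50 without number 5. The cause was not tested. In single cells, 8 of 9 transferases had their highest level outside the granule lineage in every alternative run (at least 1000 genes per cell, no doublet removal, Leiden resolution 2, and naming without the leading-gene condition). For Gstm5 and Gstp1, however, the counting intervals inside and outside overlapped in the main setting. The share of all genes with their highest level outside the lineage was not counted in any run. Without doublet removal the primary cycling class no longer formed. Without that condition, Gstm1 in primary astrocyte-like cells was at 449.8 instead of 717 CPM. With 1 library a group, single-cell ratios have no replicate check, and under 50 UMIs their intervals are wide.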
